A study of Xenopus laevis with 3 samples.

Results

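Genes of glucose output and amino acid breakdown, namely sds, g6pc1.1 and arg2, were followed in heads of Xenopus laevis tadpoles. Serine dehydratase, the product of sds, turns serine into pyruvate and ammonia. The glucose-6-phosphatase catalytic subunit, the product of g6pc1.1, carries out the last step that frees glucose in both gluconeogenesis and glycogen breakdown, and arginase, the product of arg2, splits arginine into ornithine and urea. The frog is an allotetraploid and carries many genes as a pair of copies (homeologs), named .L and .S after the longer and shorter chromosome of each pair. All array features (probe sets) annotated with 1 of these 3 gene symbols were taken, which gave 8 probe sets for 6 gene copies out of 11303 genes on the array. The genes were chosen by their log2 intensities on these same arrays, because sds.L, g6pc1.1.L and arg2.S stood above the control on both knockdown arrays, so their differences from the control are a description and support nothing. The S copy of sds had 3 probe sets and each other copy had 1.

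In the liver of vertebrates, gluconeogenesis builds glucose from pyruvate, lactate and the carbon skeletons of amino acids, and the pathway is known for its response to fasting hormones. Breakdown of amino acids frees ammonia, which the urea cycle of land vertebrates converts to urea with arginase as its last enzyme. Mammals have a cytosolic arginase of the liver, ARG1, and a mitochondrial arginase found in many tissues, ARG2. In Xenopus laevis, arginase genes are known to respond to thyroid hormone at metamorphosis. The current gene table lists igrp and g6pc2, names used in mammals for the glucose-6-phosphatase relative of pancreatic islets, among the other names of g6pc1.1.L and g6pc1.1.S, so the symbol does not settle which mammalian gene it matches best. It also lists arg1 and arg3 among the other names of arg2.L and arg2.S. The symbol arg2 thus does not settle the match to ARG1 or ARG2 either.

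The 3 groups were heads of embryos that had received CoMO, xMLTK-MO or xSox6-MO, morpholinos given at 10 ng to each cell of the cleaving embryo. The control is named CoMO and is not spelled out in the labels, while the labels call the other groups depleted of xMLTK, a protein kinase, and of xSox6, a transcription factor. All embryos were fertilised in vitro, raised at 22 °C and had their heads removed 72 hours after fertilisation, at about stage 41, and no genotype or strain is named. Each group had 1 array, how many heads went into it is not stated in the labels, and a spread between samples could not be measured, so no test was possible and every value describes these 3 arrays only.

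Intensities were background-corrected and normalised by the authors and are relative to the rest of each array. Median intensities lay between 89.8 and 92.7, and the brightest of 23 negative control probe sets had an intensity of 23.3 in CoMO, 26.2 in xMLTK-MO and 21.0 in xSox6-MO. A gene passed the level filter when its mean log2 intensity over the arrays was at least 6.51, an intensity of 91.4, and 7258 genes did. Of 31 measured gene copies that mark neurons, lens or photoreceptors, 30 passed it. Neither target could be checked at the mRNA, since map3k20 (the gene of MLTK) and sox6 had 0 annotated probe sets. In whole heads, fewer cells of a type and less RNA per cell cannot be told apart. The poly-A control transcripts were dimmer on the morphant arrays, by a median log2 difference of -0.27 in xMLTK-MO and -0.35 in xSox6-MO, against -0.02 and -0.005 for the genes past the filter. Centring on them adds 0.26 and 0.35 to each difference from CoMO, and centring on hybridisation controls adds 0.10 and 0.18.

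One copy of each gene was brighter in both morphants than in CoMO, and the other copy was not past 2-fold in either. For sds.L the intensity was 33.9 in CoMO, 241 in xMLTK-MO and 215 in xSox6-MO. Both morphant values were thus several times the control value, at 7.11-fold and 6.35-fold. Among the 7258 genes sds.L ranked 9 from the top in xMLTK-MO and 4 from the top in xSox6-MO. For g6pc1.1.L the intensity was 45.9 in CoMO, 127 in xMLTK-MO and 184 in xSox6-MO. The fold over CoMO was 2.76 in xMLTK-MO, rank 39, and 4.01 in xSox6-MO, rank 8. The xSox6-MO value was the highest of the 3 arrays. For arg2.S the intensity was 159 in CoMO, 596 in xMLTK-MO and 597 in xSox6-MO. The morphant values were nearly equal, at 3.74-fold and 3.75-fold over CoMO, ranks 24 and 10.

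The other copies gave a different picture. For arg2.L the intensity was 152 in CoMO, 180 in xMLTK-MO and 151 in xSox6-MO, so that the control and xSox6-MO values were about equal and the xMLTK-MO value was slightly higher. Its log2 differences from CoMO were 0.24 and -0.016, and the latter turned positive when arrays were centred on hybridisation or poly-A controls. For g6pc1.1.S the intensity was 48.9 in CoMO, 51.9 in xMLTK-MO and 43.0 in xSox6-MO. These are log2 differences of 0.09 and -0.18, the second of which turned positive with poly-A centring. The copy was above the negative controls on every array but below the level filter.

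The sds.S copy was at the edge of measurement. Its first probe set was not above the negative controls on any array, with 5.96 in CoMO, 9.75 in xMLTK-MO and 8.06 in xSox6-MO. The brightest had 22.0, 43.4 and 26.0, of which the CoMO value was not above the controls, which makes it at least 1.86-fold higher in xMLTK-MO and at least 1.12-fold higher in xSox6-MO. The last had 18.4, 32.7 and 21.6 and was at least 1.41-fold higher in xMLTK-MO. The 2 probe sets with a value above the controls were thus brightest in xMLTK-MO, though dim. Averaged over the probe sets on the log2 scale, sds.S differed by 0.84 in xMLTK-MO and 0.30 in xSox6-MO, and the xSox6-MO value became -0.03 when dim values were raised to the controls.

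**Figure D1:**
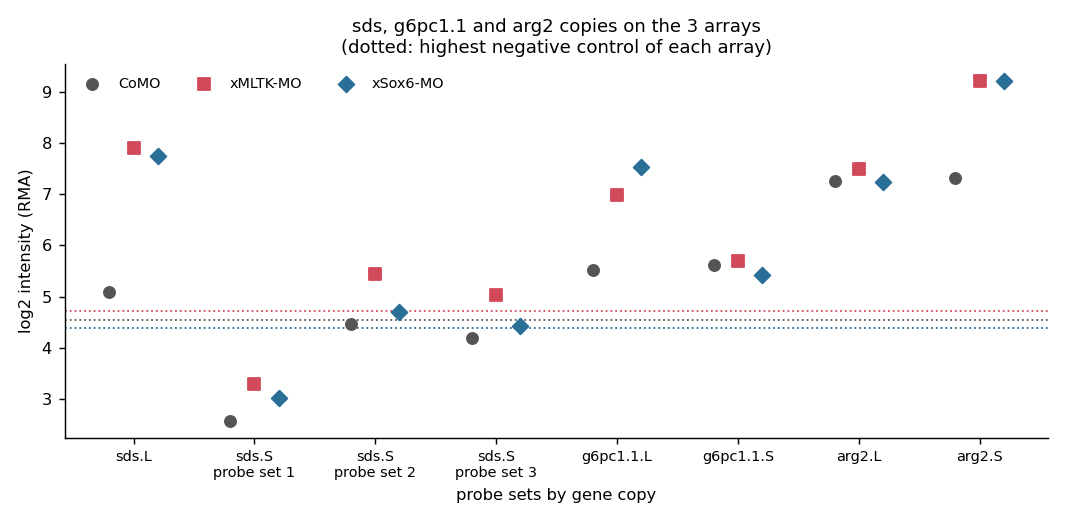
Log2 intensity of the 8 probe sets of sds, g6pc1.1 and arg2 on the CoMO (circle), xMLTK-MO (square) and xSox6-MO (diamond) arrays, with a dotted line at each array's highest negative control. The morphant points lie well above the CoMO point for sds.L, g6pc1.1.L and arg2.S, and close to it for g6pc1.1.S and arg2.L. The sds.S probe sets range from well below the control lines to somewhat above them.

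Of the 6 copies, 4 passed the level filter, and 3 of these exceeded CoMO by 2-fold or more on each morphant array. The background was low. Of the genes past the filter, 1.28% were higher by 2-fold or more in xMLTK-MO and 0.785% lower by that much, the shares for xSox6-MO were 0.978% and 1.06%, and 0.62% were higher on both. Since these contrasts chose the genes, nothing is read from the comparison. The CoMO values of sds.L and g6pc1.1.L lie below the filter's intensity of 91.4, so both passed it only through their morphant values.

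The L and S copies were also set against each other over all measured pairs. Among 1688 homeolog pairs with at least 1 copy past the filter, the differences from CoMO of the L and S copies lay at least 2-fold apart in 1.54% of pairs for xMLTK-MO and in 1.84% for xSox6-MO. These gaps are built from the same differences that chose the genes, so nothing is read from the shares for the 3 pairs. The L copy of sds exceeded the S copy by 1.99 in its log2 difference for xMLTK-MO and 2.36 for xSox6-MO, both of which rest on an S copy that was, on average, not above the negative controls on any array. For g6pc1.1 the L copy led by 1.38 and 2.19, while for arg2 it was the S copy that led, with L minus S values of -1.67 and -1.92. The probe sets of arg2.S and g6pc1.1.S are of a type that the array maker designed to match several transcripts of 1 gene, and whether any probe also binds the other copy was not tested.

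The morphant arrays were also compared with each other for these genes. The log2 difference xMLTK-MO minus xSox6-MO was 0.16 for sds.L, -0.54 for g6pc1.1.L and -0.0021 for arg2.S. The other copies had 0.25 for arg2.L, 0.27 for g6pc1.1.S and 0.54 for sds.S. Thus 0 of the 4 copies past the filter were 2-fold apart between the morphants, against 0.482% of genes past the filter that were higher in xMLTK-MO by that much and 0.22% that were lower. With shares this low, nothing is read from the 0. The g6pc1.1.L value ranked 165 from the bottom of the 7258 genes. Both comparisons with CoMO share the CoMO array, so a low value on that array alone would place a gene high in both.

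**Figure D2:**
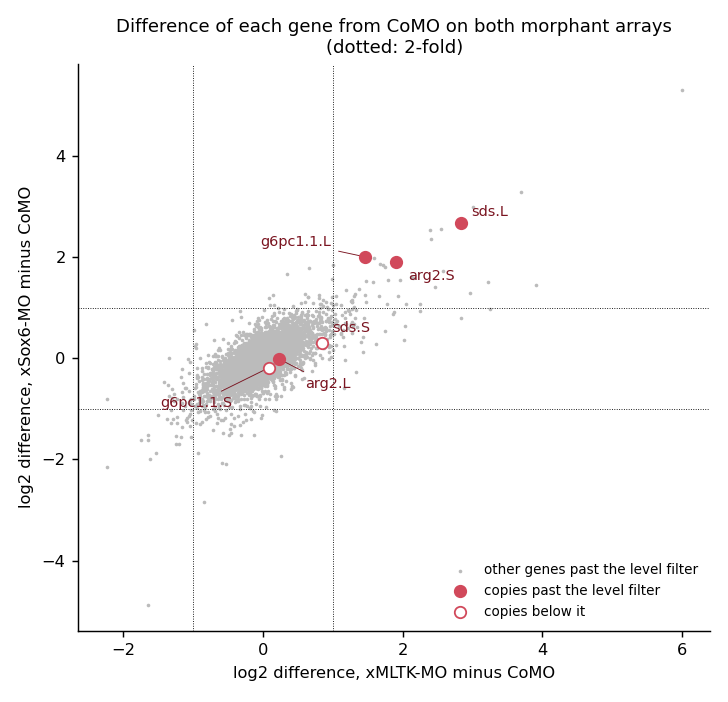
Log2 difference of each gene from CoMO in xMLTK-MO (horizontal axis) and xSox6-MO (vertical axis), for genes past the level filter (grey) and the 6 copies (red, open where below the filter), with dotted lines at 2-fold. Both axes share the CoMO array, and sds.L, g6pc1.1.L and arg2.S lie past 2-fold on both while their homeologs lie within it.

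Other genes of gluconeogenesis past the filter lay within 2-fold of CoMO, as did nearly all genes past it. Over all those genes, 1.28% were at least 2-fold higher in xMLTK-MO and 0.785% lower, and 0.978% and 1.06% in xSox6-MO. Nothing is therefore read from how few genes of a list this short were past 2-fold. Of 18 gene copies of a gluconeogenesis list past the filter, g6pc1.1.L was the 1 at least 2-fold higher on each morphant array and 0 were lower, and the median log2 difference was -0.04 in xMLTK-MO and -0.11 in xSox6-MO. A further 5 measured copies were below the filter. Phosphoenolpyruvate carboxykinase (pck1, pck2) makes the committed precursor from oxaloacetate. For pck1.L the intensity was 1227 in CoMO, 1268 in xMLTK-MO and 1960 in xSox6-MO, and for pck1.S it was 411, 418 and 681. Both pck1 copies were therefore near the control in xMLTK-MO and higher in xSox6-MO, by log2 differences of 0.68 and 0.73, within 2-fold. The mitochondrial form pck2.L differed by 0.12 and 0.31. Fructose-1,6-bisphosphatase (fbp1.L), the enzyme that bypasses phosphofructokinase, was bright and even, with 4666, 4616 and 4403. The transporter that brings glucose 6-phosphate to the phosphatase in the endoplasmic reticulum, slc37a4.L, had 810, 773 and 783, and the glucose carrier slc2a2.L (GLUT2) had 505, 344 and 458. The symbols pc and g6pc3 had 0 probe sets.

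The glucose-6-phosphatase genes lie in tandem in the gene table, where g6pc1.2.L and g6pc1.3.L directly follow g6pc1.1.L. For g6pc1.3.L the intensity was 235 in CoMO, 280 in xMLTK-MO and 369 in xSox6-MO, log2 differences of 0.26 and 0.65. The order of the 3 arrays was the same as for g6pc1.1.L, with smaller steps. The copy g6pc1.2.L was not above the negative controls on any array, at 6.86, 8.45 and 7.89. In contrast g6pc1.2.S had 14.7 in CoMO, 49.8 in xMLTK-MO and 20.3 in xSox6-MO, and was above the controls in xMLTK-MO alone, at least 2.14-fold higher than in CoMO. Tandem copies can share probes, and whether they do here was not tested.

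Amino acid breakdown held genes on both sides. In a list of 51 gene copies past the filter, sds.L, chosen for being high, was the 1 at least 2-fold higher in xMLTK-MO and 1 was lower. In xSox6-MO 2 were higher and 1 lower. The shares over all genes past the filter were 1.28% higher and 0.785% lower in xMLTK-MO, and 0.978% and 1.06% in xSox6-MO. Nothing is read from counts this small. The list's medians were -0.18 and -0.08, and 16 more copies were below the filter. Besides sds.L, the higher gene in xSox6-MO was a cysteine dioxygenase copy (cdo1.S), the first enzyme of cysteine oxidation, with 199 in CoMO, 230 in xMLTK-MO and 399 in xSox6-MO. At 2.01-fold it only just reached the threshold. Its homeolog cdo1.L, also past the filter, was not higher, with 136, 87.1 and 134. The lower gene was hpd.L in xMLTK-MO and fah.L in xSox6-MO. Hydroxyphenylpyruvate dioxygenase (hpd.L), an enzyme of tyrosine breakdown, had 427, 173 and 249, 2.46-fold lower in xMLTK-MO and 1.71-fold lower in xSox6-MO. Fumarylacetoacetase (fah.L), the last enzyme of that pathway, had 422, 245 and 202, 1.72-fold and 2.08-fold lower, the latter within 2-fold when centred on hybridisation controls. Tyrosine aminotransferase (tat.S), its first enzyme, had 69.9 in CoMO but was not above the controls on either morphant array, at 14.6 and 18.8, which makes it at least 2.67-fold and at least 3.32-fold lower. Between these steps, homogentisate dioxygenase (hgd.L) had 268, 210 and 202 and maleylacetoacetate isomerase (gstz1.L) 606, 657 and 660. The tat.S copy is below the level filter, and other copies below it went either way. The branched-chain aminotransferase gene bcat1.S had 28.6, 85.3 and 48.5 and the urocanate hydratase gene uroc1.L 54.2, 129 and 106, while the D-amino acid oxidase gene dao.L had 51.4, 15.0 and 41.4, its xMLTK-MO value not above the controls. The serine dehydratase-like gene sdsl.S had 235, 269 and 388, a log2 difference of 0.19 in xMLTK-MO and 0.72 in xSox6-MO, and glutamate dehydrogenase (glud1.S) differed by -0.32 and 0.13. The symbol gls had 0 probe sets.

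The list of serine and one-carbon synthesis had 7 copies past the filter, with medians of -0.23 and -0.28. Most of these copies belong to one-carbon metabolism, and the serine synthesis genes psat1.L and psph.L were dim and below the filter. Phosphoglycerate dehydrogenase (phgdh.S), which opens the pathway to serine, had 181 in CoMO, 102 in xMLTK-MO and 78.7 in xSox6-MO. It was the 1 gene of this list past 2-fold, 2.29-fold lower in xSox6-MO, and it was 1.76-fold lower in xMLTK-MO. Among all genes past the filter, 1.06% were at least 2-fold lower in xSox6-MO, and nothing is read from 1 gene in a list this short. The phgdh.S copy was thus lower on the arrays where sds.L was higher, but both contrasts share the CoMO array. A link between the 2 genes was not tested, and phgdh.S came within 2-fold in xSox6-MO when centred on poly-A controls.

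Around arginase, the list of the urea cycle, arginine and polyamines had 18 copies past the filter. Of these arg2.S, chosen for being high, was the 1 at least 2-fold higher on each morphant array and 0 were lower. Shares over all genes past the filter were 1.28% higher and 0.785% lower in xMLTK-MO, and 0.978% and 1.06% in xSox6-MO. Nothing is read from these counts in a list this short. The list's medians were 0.02 and -0.02. The other arginase, arg1.L, had an intensity of 220 in CoMO, 417 in xMLTK-MO and 433 in xSox6-MO, 1.90-fold and 1.97-fold higher and so just within 2-fold, while centring on hybridisation controls took its log2 differences to 1.02 and 1.16. Its morphant values were close to each other, as were those of arg2.S. The enzymes before arginase were not higher. Argininosuccinate synthase (ass1.S) had 280, 266 and 223, and argininosuccinate lyase (asl.L) had 108, 108 and 85.1. The entry enzymes were dim, with carbamoyl phosphate synthase (cps1.L) not above the controls on any array and ornithine transcarbamylase (otc.S) at 29.2, 28.6 and 26.2. Of the enzymes that use ornithine, ornithine aminotransferase (oat.S) had 136, 92.9 and 85.8, and ornithine decarboxylase (odc1.L), which starts polyamine synthesis, had 4026, 5051 and 4723.

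**Figure D3:**
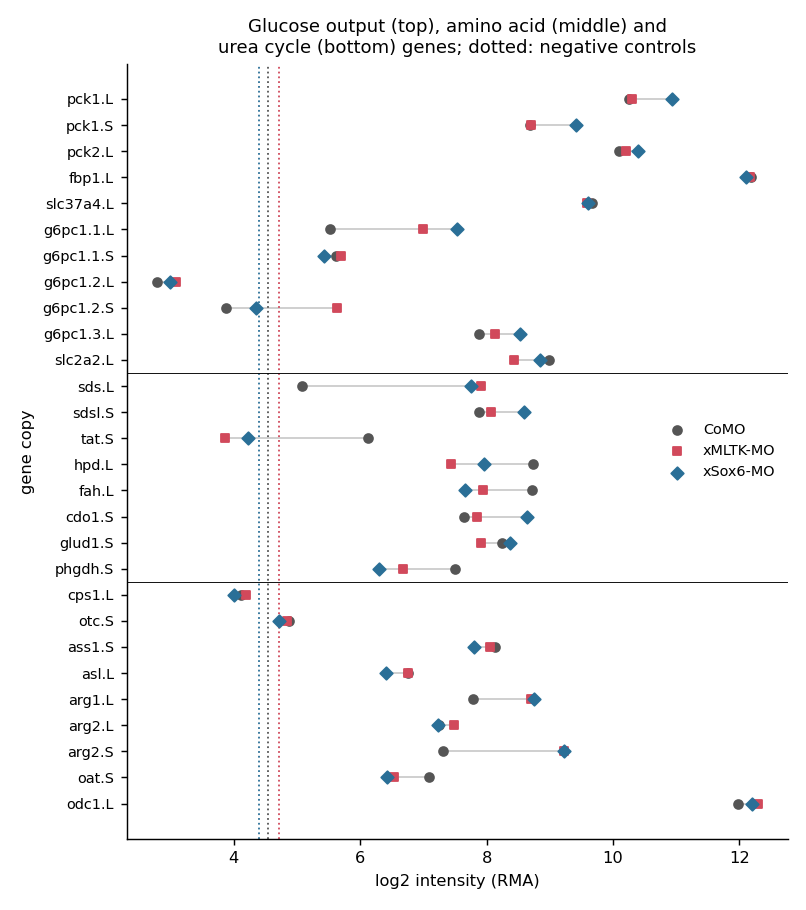
Log2 intensity of 28 gene copies of glucose output (top block), amino acid metabolism (middle) and the urea cycle with ornithine use (bottom) on the 3 arrays, with dotted lines at the highest negative control of each array. Long grey lines at sds.L, g6pc1.1.L and arg2.S contrast with short ones at fbp1.L, slc37a4.L and ass1.S, and tat.S, hpd.L, fah.L and phgdh.S run the other way.

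Neighbouring metabolic lists were mostly within 2-fold, as were genes past the filter in general. Over all of them, 1.28% were higher and 0.785% lower by that much in xMLTK-MO, and 0.978% and 1.06% in xSox6-MO. Nothing is read from a count of 0 in lists this short. For glycolysis, 0 of 26 copies past the filter were 2-fold higher or lower on either morphant array, and the medians were 0.02 and -0.15. In the glycogen list the 1 of 9 past 2-fold was ppp1r3b.L, a subunit that directs protein phosphatase 1 to glycogen, with 102 in CoMO, 243 in xMLTK-MO and 224 in xSox6-MO. Of 24 copies in the fasting and glucocorticoid list, 2 were at least 2-fold higher in xMLTK-MO and 0 in xSox6-MO. Both were copies of igfbp1, a binding protein for insulin-like growth factors that rises in fasting in mammals. Intensities of igfbp1.L were 77.1, 210 and 134, those of igfbp1.S 99.6, 243 and 156, and the xSox6-MO value lay between the others for each. The igfbp1.L copy passed the filter only through its morphant values. Centred on poly-A controls, igfbp1.L reached a log2 difference of 1.15 in xSox6-MO. The list's medians were 0.17 and 0.08.

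In the amino acid stress list 1 of 21 copies was past 2-fold on each morphant array, the transcription factor gene ddit3.L, with 136, 293 and 281. Medians there were -0.20 and -0.18. Among 12 transport genes the sodium-glucose transporter of the kidney, slc5a2.L, was 3.64-fold higher in xMLTK-MO, with 64.9, 236 and 119, and 0 were past 2-fold in xSox6-MO, although slc5a2.L reached a log2 difference of 1.06 there when centred on hybridisation controls. Medians were 0.07 and 0.01. The slc5a2.L copy passed the filter only through its morphant values. Of 7 hepatocyte nuclear factor copies 0 were past 2-fold, with medians of -0.02 and -0.12. List medians this close to 0 depend on the centring: on hybridisation controls the sign turned for 2 of the 11 medians in xMLTK-MO and 6 in xSox6-MO, and on poly-A controls for 7 and 9.

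**Figure D4:**
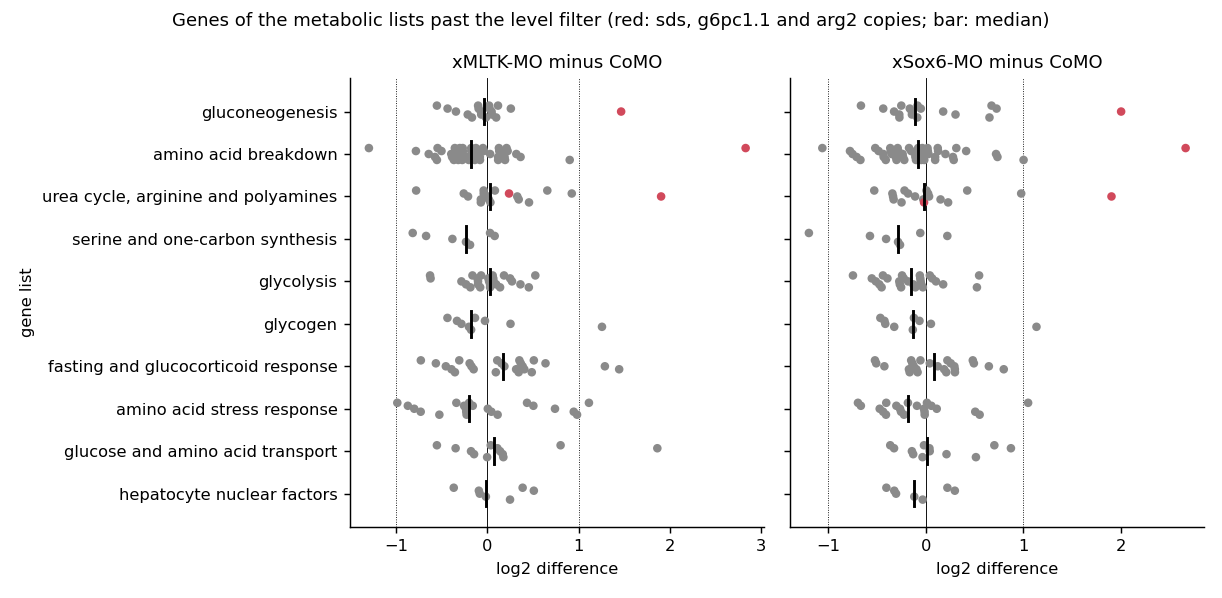
Log2 differences from CoMO of the genes past the level filter in 10 metabolic gene lists, for xMLTK-MO (left) and xSox6-MO (right), with the 3 genes' copies in red, a bar at each median and dotted lines at 2-fold. The red points of g6pc1.1.L, sds.L and arg2.S, which were chosen for being high, lie past 2-fold in both panels. The red point of arg2.L lies at 0.24 and -0.016. Some grey points also lie past 2-fold on either side, and the list medians stay between -0.28 and 0.17.

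The genes with the pattern most like each copy were sought by the Euclidean distance between pairs of log2 differences from CoMO over both morphant arrays. Nearest to arg2.S were acod1lb.L at a distance of 0.19, the eosinophil peroxidase gene epx.L at 0.20, the protease gene prss57.L at 0.24, the chemokine gene cxcl8.L at 0.33 and the alcohol dehydrogenase gene adh4.L at 0.36. The genes nearest to g6pc1.1.L were cxcl8.L at 0.12, prss57.L at 0.25, epx.L at 0.30, acod1lb.L at 0.35 and arg2.S at 0.45. For sds.L they were xepsin.S at 0.30, crisp1.5.S at 0.38, phyhdlb.L at 0.45, satpb.L at 0.53 and ctse.L at 0.97. These likenesses rest on 3 arrays and share the CoMO array. The distance is built from the differences that chose the genes, so nothing is read from how few genes lie near the 3 higher copies. Of the near genes named so far, only crisp1.5.S, ctse.L and arg2.S had a CoMO intensity above the filter's 91.4. The others passed the filter only through their morphant values. Within a distance of 0.5 lay 9 genes for arg2.S, 7 for g6pc1.1.L and 3 for sds.L, against 525 for sds.S, 4836 for arg2.L and 5067 for g6pc1.1.S. The nearest genes of the latter 3 were azin2.S, rbbp5.S and cep170b.S, and with so many genes as close the order says little.

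Marker genes of several tissues were measured on the same arrays, and their part in the differences was not tested. Over all genes past the filter, 1.28% were at least 2-fold higher and 0.785% lower in xMLTK-MO, and 0.978% and 1.06% in xSox6-MO. Nothing is read from counts of 0, 1 or 2 in lists this short. Summed intensities are over all measured copies of a list, also those below the filter. Of 27 hepatocyte marker copies 25 passed the filter, 2 were at least 2-fold higher in xMLTK-MO (the complement genes c9.L and c3.L) and 1 lower (hpd.L), and in xSox6-MO 1 was higher (c9.L) and 0 lower. The summed hepatocyte intensity was 37601 in CoMO, 40374 in xMLTK-MO and 34856 in xSox6-MO. Much of it came from rbp4.L (6019, 6475 and 6128) and rbp4.S (8748, 8627 and 7922). Median log2 differences of the copies past the filter were 0.08 and -0.19, and single copies went either way. Transferrin (tf.L) had 1534, 1600 and 1608, transthyretin (ttr.L) 1057, 1086 and 820, and apoa1.L 1796, 1857 and 919. The copy apoh.L had 469, 688 and 397, and serpina1.S 3958, 2725 and 3134. Homeologs past the filter did not always run alike, with tf.S at 130, 200 and 166, apoa1.S at 1626, 2045 and 1333, and serpina1.L at 1229, 1485 and 1297. Kidney markers had 3 of 9 copies past the filter, with slc5a2.L the 1 past 2-fold, in xMLTK-MO, and a summed intensity of 460, 719 and 566. In the intestine list 2 of 11 copies passed, and the fatty acid-binding protein gene fabp2.L was 2.53-fold higher in xMLTK-MO and within 2-fold in xSox6-MO. The summed intensity was 372, 606 and 376. Exocrine pancreas markers had 7 of 26 copies past the filter, of which 6 were at least 2-fold higher in xMLTK-MO and 3 in xSox6-MO. Of these, cel.2.S (49.4 in CoMO), cela1.1.S (89.6), pdia2.L (84.4) and ctrb1.L (53.7) passed the filter of 91.4 only through their morphant values. The copies counted in xSox6-MO were cel.2.S, cela1.1.S and pdia2.L. The kidney copy slc5a2.L (64.9 in CoMO) also passed only through its morphant values. The summed pancreas intensity was 958, 5530 and 1602.

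Myeloid blood cells, in which mammals use arginase, were marked by 18 copies, of which 3 passed the filter and 6 were not above the controls on any array. One of the 3, epx.L, was past 2-fold, with 85.4 in CoMO, 281 in xMLTK-MO and 307 in xSox6-MO, and passed the filter only through its morphant values. The myeloperoxidase copies, below the filter, ran the same way, with mpo.L at 47.0, 99.96 and 89.3 and mpo.S at 19.0, 59.9 and 47.1. The CoMO value of mpo.S was not above the controls. The oxidase gene cybb.L, with 69.8, 82.4 and 86.4, and the matrix protease gene mmp7.L, with 43.2, 70.1 and 55.2, also had their lowest value in CoMO. The cathepsin copy ctss.S, past the filter, had its highest there, with 249, 219 and 165. So did copies below the filter, namely ctss.L with 60.5, 46.7 and 36.2, lcp1.S with 75.7, 57.9 and 59.2, and the dim c1qc.L with 23.8, 20.7 and 15.7. The remaining copy past the filter, cyba.L, had 98.7, 120 and 98.3. The common leukocyte gene ptprc.L was not above the controls on any array. The summed myeloid intensity over all 18 copies, with those below the filter, was 906, 1208 and 1100. Of this sum epx.L alone gave 85.4, 281 and 307, so the sum does not describe the list as a whole. Of 15 skeletal muscle copies past the filter 0 were past 2-fold in xMLTK-MO and 2 were higher in xSox6-MO. These were the myogenic factor genes myog.S and myod1.L, and myod1.L, at 70.8 in CoMO, passed the filter only through its morphant values. Below the filter, acta1.S had 118, 43.0 and 49.5, and myog.L had 49.5, 78.2 and 120. The summed muscle intensities were 66521, 59800.5 and 57129. Of 8 epidermal copies 0 were past 2-fold, and the sums were 20666, 23959 and 24732. Head tissue markers had 1 of 30 lower in xMLTK-MO and 10 lower in xSox6-MO, and 0 higher. All the lower ones were lens or photoreceptor genes. Over all genes past the filter, 1.28% were at least 2-fold higher and 0.785% lower in xMLTK-MO, and 0.978% and 1.06% in xSox6-MO. The neuron copies lay within 2-fold on both morphant arrays, in xSox6-MO from a log2 difference of -0.25 (gap43.S) to 0.54 (nefm.L).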

How the data were processed

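RNA from heads was hybridised to Affymetrix Xenopus laevis arrays, 1 per group, from 150 ng of total RNA. The deposited intensities are on a linear scale and were made with RMA (background correction, quantile normalisation, summary per probe set), per the submitters' processing notes, with GeneSpring GX 11.0.2 and GeneChip operating Software 1.4 named in the design text. Such scaling hides any shift common to all transcripts. Here log2 was taken with python 3.11.15 and pandas 2.3.3. Of 32635 probe sets, 15505 had 1 gene symbol and 279 had several, which were left out. Names were updated by gene identifier (15394 matched, 2 changed) with the RefSeq table of assembly Xenopus_laevis_v10.1, used for names, synonyms and gene order only. Log2 values of probe sets with the same symbol were averaged. With 1 array per group there was no test, and a gene counted as higher or lower from 2-fold. Values not above an array's highest negative control give a lower bound, with that control in their place, a rule added after seeing the data. The counting was tested on simulated data.

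The genes and the 11 lists and 7 marker lists were chosen with earlier results of these data known. Named genes were the copies of sds, g6pc1.1 and arg2, genes of the same enzymatic steps, list genes past the level filter and 2-fold (at most 6 per list, 4 per marker list) and the 5 nearest in pattern. The tandem copies of g6pc1, hgd.L, gstz1.L, bcat1.S, uroc1.L, dao.L and some markers given for their level were chosen after their values were seen. No sequences are shown, and none were used here.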

Additional observations from a re-analysis of the deposited data

How the results depend on the processing

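The 3 higher copies stayed at least 2-fold above CoMO in both morphants under all 6 alternatives run for single genes (renewed quantile normalisation, centring on hybridisation or poly-A controls, the brightest probe set, a floor at the negative controls, a pseudocount of 16). Their log2 differences ran for sds.L from 2.37 to 3.09 (xMLTK-MO) and from 2.21 to 3.02 (xSox6-MO), for g6pc1.1.L from 1.21 to 1.72 and from 1.69 to 2.35, and for arg2.S from 1.80 to 2.16 and from 1.81 to 2.26. Most of these alternatives could not have taken these copies under 2-fold. Each has 1 probe set, above the controls on every array, so the brightest probe set and the floor changed nothing. Both centrings only add to differences from CoMO, so only the renewed normalisation and the pseudocount could lower them. Of 108 values of the 6 copies 5 turned sign, all with a difference under 2-fold, and of 198 list medians 36 did. Counts of genes depended on the settings. With no filter on level, those past 2-fold were 158 higher and 87 lower in xMLTK-MO and 120 higher in xSox6-MO, and between the morphants 63 were higher and 28 lower in xMLTK-MO. A filter at the 75th percentile gave 38 and 30, 26 and 39, and 16 and 6. Hybridisation control centring gave 122 higher and 48 lower in xSox6-MO. Centring on poly-A controls, added after seeing the data, gave 197 higher and 21 lower in xMLTK-MO and 247 and 25 in xSox6-MO. Here sds.S passed 2-fold in xMLTK-MO. Of the other metabolic genes, fah.L (-0.88 on hybridisation and -0.71 on poly-A controls) and phgdh.S (-0.85 on poly-A controls) came within 2-fold in xSox6-MO, as did cdo1.S (0.95) and ddit3.L (0.97) with the pseudocount. Others passed 2-fold there: slc5a2.L (1.06 on hybridisation and 1.22 on poly-A controls), igfbp1.L (1.15 on poly-A controls) and arg1.L (1.16 and 1.33, and in xMLTK-MO 1.02 and 1.18). Leaving out an array was not run, since it removes a group. No paired analysis was possible because each group has 1 array.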

Other observations

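The genes beside the 3 enzymes in the RefSeq gene table mostly lay within 2-fold, as far as they were measured, as did genes past the filter in general. Among all of those, 1.28% were at least 2-fold higher and 0.785% lower in xMLTK-MO, and 0.978% and 1.06% in xSox6-MO. Nothing is read from counts of 0 or 1 among so few neighbours. Of the 10 nearest protein-coding genes to arg2.S, 4 were measured and past the filter, and 1 of these was past 2-fold. That was the next gene, the RNA helicase gene ddx52.S, with an intensity of 180 in CoMO, 372 in xMLTK-MO and 421 in xSox6-MO, log2 differences of 1.05 and 1.23. Its homeolog ddx52.L, next to arg2.L, had 271, 431 and 449, differences of 0.67 and 0.73, although arg2.L was near its control value. Among the 10 nearest to sds.L, 4 passed the filter and 1 was past 2-fold in the other direction, MGC75582.L, with 4283, 1648 and 1864. Below the filter, its neighbour tbx5.L was higher in both morphants, with 54.2, 112 and 101, log2 differences of 1.05 and 0.90. For g6pc1.1.L 5 passed and 0 were past 2-fold, among them aoc3.L at -0.21 and -0.27 and psme3.L at 0.32 and 0.39.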
